A study of Mus musculus with 12 samples.

Results

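Parp14, Parp9 and Dtx3l are genes of a single stretch of mouse chromosome 16, and they are described here across all 12 labelled libraries of an RNA sequencing study of the mouse macrophage line RAW 264.7. They were taken by symbol and make up 3 of the 24421 gene symbols in the table. All 3 passed the minimum level for testing, which was 1 CPM (a gene's reads scaled to a common library total) in at least 2 libraries and left 10899 genes. RAW 264.7 is an established line from BALB/c mice. The libraries fall into 6 groups of 2. They are Parp14 -/- (KO) cells treated for 2 h with lipopolysaccharide (LPS), untreated KO cells, wild-type (WT) cells given LPS together with a Jak inhibitor, WT cells given LPS, WT cells given the inhibitor alone, and untreated WT cells. Only WT cells received the inhibitor among the libraries used here. The sources used here do not give its name or dose, how Parp14 was disrupted, or whether the KO cells are 1 clone or several. Every group shares the line and its growth medium.

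Parp14 encodes a large mono-ADP-ribosyltransferase with macrodomains, which are modules that bind ADP-ribose. Parp9 encodes a smaller macrodomain protein of the same family, and its protein works as a stable pair with the product of Dtx3l, an E3 ubiquitin ligase of the Deltex family. In human cells PARP9 and DTX3L are known as genes that share a bidirectional, interferon-inducible promoter. In macrophages LPS is sensed by the receptor TLR4, which induces interferon beta through an adaptor path of its own. The secreted interferon then acts back on its receptor, and the receptor-bound Jak kinases activate the transcription factor complex ISGF3, which binds interferon-stimulated response elements (ISRE). A Jak inhibitor acts at this last, receptor-proximal step.

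In the GENCODE M21 annotation of GRCm38, Parp14 lies on the minus strand at chr16:35832874-35871544. Dtx3l lies on the minus strand at chr16:35926511-35939151, 55.0 kb further along. Parp9 lies on the plus strand at chr16:35938470-35972605, so that Parp9 and Dtx3l are arranged head to head and overlap by 682 bases. Both protein-coding Dtx3l transcripts start at 35939151, and the protein-coding Parp9 transcripts start at 35939011 and 35938470, which is 140 and 681 bases from the Dtx3l start. The 3 genes have 9306, 5725 and 4872 bases of annotated exon in the order Parp14, Dtx3l and Parp9. Parp9 and Dtx3l share 458 exon bases, which is 9.4% of the exon bases of Parp9 and 8.0% of those of Dtx3l. The sources used here do not say whether the counting used strand, so reads from the shared bases cannot be assigned to one strand or the other. Parp14 shares 1.18% of its exon bases with the predicted gene Gm49730.

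The RefSeq promoter table (GRCm38.p6) has an entry for Dtx3l and none for Parp14 or Parp9. The part of its 300-base window that is outside every annotated exon of Parp9 and Dtx3l is shown because it lies at the shared end of the head-to-head pair. It covers chr16:35939207-35939277 and is written on the minus strand. The whole window runs from 35938978 to 35939277 and was set by the RefSeq Dtx3l start at 35939027, not by the GENCODE start. The stretch lies within the annotated Parp9 gene, past its protein-coding starts. Bases outside the window were not searched. Capitals mark GAAA or TTTC, which are the 4-letter unit of the ISRE and its complement.
Dtx3l upstream: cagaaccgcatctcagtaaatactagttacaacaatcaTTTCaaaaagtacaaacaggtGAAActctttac
The unit occurs 2 times in these 71 bases, and 52.5% of the windows of this length in the 32851 promoters of the table hold at least 1. The ISRE core, written GAAA, then any 2 bases, then GAAA, was searched on both strands of the whole 300-base Dtx3l window and had 0 matches, with a match in 3.44% of all promoters. The core of the interferon-gamma-activated site, TTCNNNGAA, had 0 matches on either strand, with a match in 8.30% of all promoters.

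Genes received 35.9 to 45.7 M reads per library. The Pearson r between replicates ran from 0.995 to 0.997 across genes, and the replicates' counts differed by more than sampling. Of 10 macrophage markers 9 were above 1 CPM in all libraries, with a summed level of 10900 to 14800 CPM, and the efferocytosis receptor Mertk was at or near 0. Among the 10, Adgre1 (F4/80) had 76.4 and 64.7 CPM in LPS-treated KO cells, against 187.6 and 162.5 CPM in LPS-treated WT cells. Without treatment it had 79.2 and 67.9 CPM in KO cells, against 152.7 and 133.4 CPM in WT cells. Cd14 went the other way, with 2427.4 and 2424.3 CPM in LPS-treated KO cells, against 2003.7 and 1941.2 CPM in LPS-treated WT cells. Untreated KO cells had 955.0 and 1099.2 CPM of Cd14, against 813.0 and 843.9 CPM in untreated WT cells. The part of Adgre1 in the results was not tested. Summed T cell, B cell, fibroblast and endothelial markers stayed between 0 and 0.848 CPM in every library, and the 4 epithelial markers had no read. No label says that replicates came from separate cultures, so the p-values below cover just the spread among these libraries, which may be technical. Values are CPM of gene reads, and changes are differences of log2(CPM + 1). Calls are at a Benjamini-Hochberg adjusted p under 0.05 in limma over all 10899 genes. Whether the libraries of 2 groups overlap is only described. With 2 libraries against 2 the smallest 2-sided p of an exact test is 0.333. The share of all genes without overlap was not counted.

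The knocked-out gene was measured first. Parp14 stood at 35.0 and 40.5 CPM in LPS-treated KO cells and at 10.0 and 11.97 CPM in untreated KO cells. It stood at 314.8 and 419.2 CPM in LPS-treated WT cells and at 76.4 and 99.7 CPM in untreated WT cells. All 4 KO libraries were below all 4 of these WT libraries, and KO cells kept Parp14 reads, with 399 and 458 of them even in the untreated libraries. The mean level in KO cells was 10.3% of that in WT cells after LPS and 12.5% without treatment. The log2 change was -3.24 after LPS (SE 0.20, 95% interval -3.69 to -2.79, adjusted p = 1.12e-05) and -2.89 without treatment (SE 0.20, interval -3.33 to -2.44, adjusted p = 2.66e-05). After LPS no tested gene fell more, and without treatment Parp14 had rank 3 from the bottom. Reads were counted per gene, so these data do not show in which exons the remaining reads lie. Since cells were measured in bulk, fewer cells with a transcript and less transcript per cell cannot be told apart.

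Parp9 was lower in KO cells too, with and without LPS. Parp9 had 48.7 and 53.0 CPM in LPS-treated KO cells, against 85.6 and 92.8 CPM in LPS-treated WT cells. The groups did not overlap, and the KO mean was 57.0% of the WT mean. Parp9 had 55.5 and 55.6 CPM in untreated KO cells, against 65.7 and 71.3 CPM in untreated WT cells. These groups did not overlap either, but the gap was smaller, with a KO mean at 81.1% of the WT mean. The log2 change was -0.80 after LPS (SE 0.07, interval -0.96 to -0.64, adjusted p = 0.000105) and -0.30 without treatment (SE 0.07, interval -0.46 to -0.13, adjusted p = 0.0299). The untreated call was lost when any 1 of the 4 libraries was left out, with adjusted p of 0.0685 to 0.221, and under a median-of-ratios scaling (adjusted p = 0.0514).

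Dtx3l was lower in KO cells after LPS, and its change without treatment was not called. Dtx3l had 35.4 and 43.8 CPM in LPS-treated KO cells, against 78.6 and 92.3 CPM in LPS-treated WT cells. The groups did not overlap, and the KO mean was 46.3% of the WT mean. Dtx3l had 40.1 and 41.2 CPM in untreated KO cells, against 45.5 and 47.6 CPM in untreated WT cells, and these did not overlap either. The log2 change was -1.10 after LPS (SE 0.12, interval -1.36 to -0.83, adjusted p = 0.000291) and -0.19 without treatment (SE 0.12, interval -0.46 to 0.07, adjusted p = 0.458). Thus Parp9 and Dtx3l were called lower in KO cells after LPS, where 7.66% of all tested genes were called lower and 6.19% higher. Without treatment Parp9 was called lower, where 5.37% of all tested genes were called lower and 4.31% higher. That call was lost with any library of the comparison left out. Parp14 was called lower in both comparisons, but it is the knocked-out gene, so its calls are no separate result. Under the deposited scaling 1026 genes were called lower and 324 higher without treatment, and 1082 and 514 after LPS. After LPS 0.881% of the tested genes had a lower change than Dtx3l and 1.73% a lower change than Parp9.

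**Figure D1:**
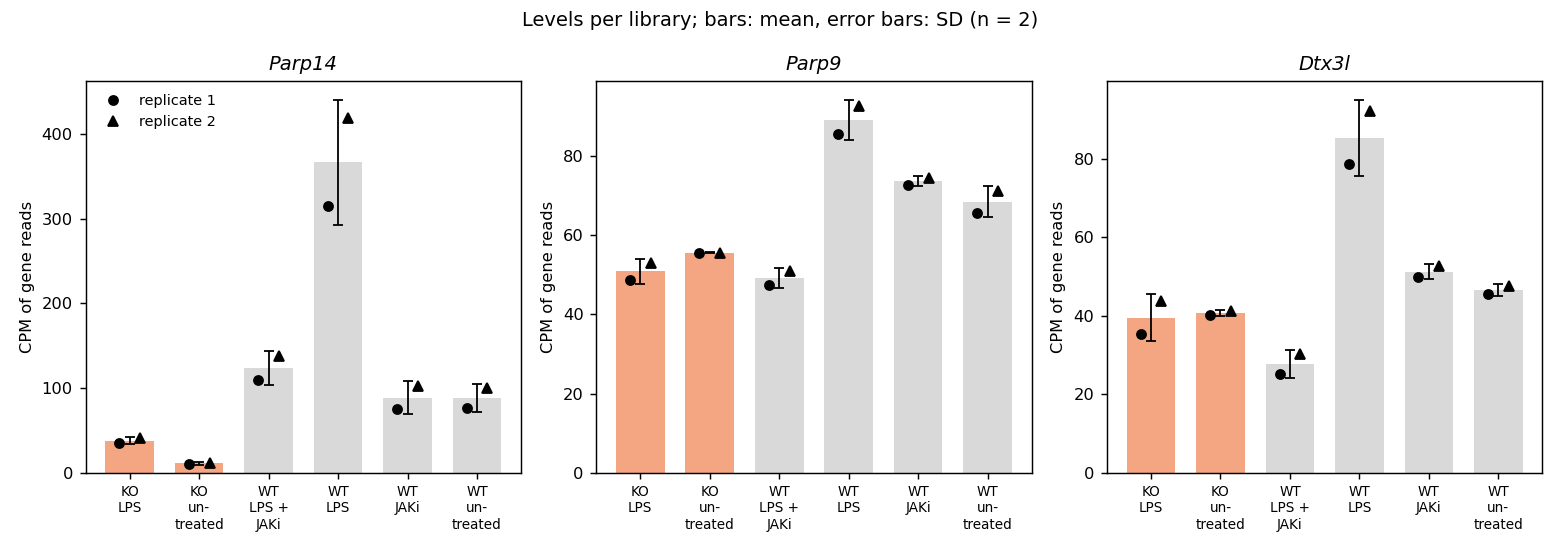
CPM of gene reads of Parp14, Parp9 and Dtx3l in each library (points, circle for replicate 1 and triangle for replicate 2), with group means as bars and SD as error bars (n = 2). In each panel LPS-treated WT cells are highest, KO cells (orange) are lowest for Parp14, and WT cells with LPS and the Jak inhibitor (JAKi) are lowest for Parp9 and Dtx3l.

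LPS raised all 3 genes in WT cells, and in KO cells it raised the remaining Parp14 reads without a called change of Parp9 or Dtx3l. The mean of Parp14 in LPS-treated WT cells was 4.17 times that in untreated WT cells, against 1.84 times for Dtx3l and 1.30 times for Parp9. The log2 changes in WT cells were 2.04 for Parp14 (SE 0.20, adjusted p = 1.24e-05), 0.86 for Dtx3l (SE 0.12, interval 0.59 to 1.12, adjusted p = 0.000127) and 0.38 for Parp9 (SE 0.07, interval 0.21 to 0.54, adjusted p = 0.00111). Of all tested genes 13.7% were called higher and 53.6% lower with LPS in WT cells, or 2883 and 3519 genes under median-of-ratios scaling. By the size of the change, 5.40% had a higher change than Dtx3l and 10.7% a higher change than Parp9. LPS moved the median of all genes by -0.30 in WT cells, by -0.29 in KO cells and by -0.27 under the inhibitor. Relative to that median the WT changes were 2.35 for Parp14, 1.16 for Dtx3l and 0.68 for Parp9.

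In KO cells the mean of Parp14 after LPS was 3.43 times that of untreated KO cells, and the log2 change was 1.69 (SE 0.20, adjusted p = 4.52e-05). Parp14 was thus 1 of the 3 genes called higher, where 13.9% of all tested genes were called higher and 52.7% lower (2919 and 3591 genes under median-of-ratios scaling). The mean of Parp9 was 50.8 ± 3.0 CPM in KO cells given LPS, against 55.5 ± 0.1 CPM in KO cells without treatment (SD, n = 2 each). Its log2 change was -0.13 (SE 0.07, interval -0.29 to 0.03, adjusted p = 0.147), and with the replicate number as a block it was called lower (adjusted p = 0.0249), where 62.2% of all genes were. The mean of Dtx3l was 39.6 ± 5.9 CPM in KO cells given LPS, against 40.7 ± 0.8 CPM in KO cells without treatment (SD, n = 2 each), and the libraries overlapped. Its log2 change was -0.05 (SE 0.12, interval -0.31 to 0.22, adjusted p = 0.749). Relative to the median of all genes the changes of Parp9 and Dtx3l in KO cells were 0.16 and 0.24. Under median-of-ratios scaling they were 0.15 and 0.23, so the direction of both depends on the scaling, and neither was called there.

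The difference between the LPS responses was tested directly, as the response of KO cells minus that of WT cells. It was -0.90 for Dtx3l (SE 0.17, interval -1.28 to -0.53, adjusted p = 0.0647), -0.50 for Parp9 (SE 0.10, interval -0.73 to -0.27, adjusted p = 0.0917) and -0.35 for Parp14 (SE 0.28, interval -0.99 to 0.28, adjusted p = 1.00). None of the 3 was called without a block, where 31 of all tested genes (0.284%) were called lower. Of all genes 340 were lower at an unadjusted p under 0.05 in limma, Parp9 and Dtx3l among them. edgeR called none of the 3, and DESeq2 called Parp9 (adjusted p = 0.0137) and Dtx3l (adjusted p = 0.000922). Without replicate 2 of LPS-treated KO cells limma called Dtx3l (-1.05, adjusted p = 0.0482). With the replicate block all 3 were called lower, with adjusted p of 7.23e-05 for Dtx3l, 0.000586 for Parp9 and 0.0283 for Parp14, where 2.12% of all genes were called lower. With a library left out the difference for Parp14 ran from -0.56 to -0.14. Within a replicate number the differences were -0.95 and -0.86 for Dtx3l, -0.56 and -0.44 for Parp9, and -0.32 and -0.38 for Parp14. The block removes a shift that the replicates share. For Parp14 replicate 2 was 1.16 to 1.37 times replicate 1 in all 6 groups, against 1.00 to 1.09 times for Parp9 and 1.03 to 1.24 times for Dtx3l.

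The Jak inhibitor lowered all 3 genes in LPS-treated WT cells. Parp14 had 109.8 and 137.6 CPM with LPS and the inhibitor, against 314.8 and 419.2 CPM with LPS. Dtx3l had 25.2 and 30.3 CPM with LPS and the inhibitor, against 78.6 and 92.3 CPM with LPS. Parp9 had 47.4 and 51.0 CPM with LPS and the inhibitor, against 85.6 and 92.8 CPM with LPS. No library with the inhibitor overlapped those with LPS alone, and the means with the inhibitor were 33.7% of those with LPS alone for Parp14, 32.5% for Dtx3l and 55.2% for Parp9. The log2 changes were -1.56 for Parp14 (SE 0.20, interval -2.0 to -1.11, adjusted p = 0.00403), -1.59 for Dtx3l (SE 0.12, interval -1.85 to -1.32, adjusted p = 0.000138) and -0.84 for Parp9 (SE 0.07, interval -1.01 to -0.68, adjusted p = 0.000261). Of all tested genes 1.04% were called lower and 0.0734% higher in this comparison. The call of Parp14 was lost without replicate 2 of LPS-treated WT cells (log2 change -1.35) and without replicate 1 of LPS and the inhibitor (-1.39), with adjusted p of 0.0554 and 0.0552.

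The inhibitor alone gave no call for any of the 3 genes. Parp14 had 74.7 and 102.4 CPM with the inhibitor, against 76.4 and 99.7 CPM in untreated WT cells, and the libraries overlapped. Parp9 had 72.7 and 74.6 CPM with the inhibitor, against 65.7 and 71.3 CPM in untreated WT cells. Dtx3l had 49.97 and 52.62 CPM with the inhibitor, against 45.5 and 47.6 CPM in untreated WT cells. For Parp9 and Dtx3l the libraries with the inhibitor were both above the untreated ones, by log2 changes of 0.10 (interval -0.06 to 0.27) and 0.14 (interval -0.13 to 0.40). For Parp14 the log2 change was 0.00 (interval -0.45 to 0.45). All 3 had an adjusted p of 1.00 in limma, and none reached an unadjusted p under 0.05. In the whole table limma called 0% of the genes in this comparison, with 111 at an unadjusted p under 0.05, while edgeR called 0 and DESeq2 2.

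With Jak kinases inhibited, LPS lowered Parp9 and Dtx3l instead of raising them. Dtx3l averaged 27.8 ± 3.6 CPM with LPS and the inhibitor and 51.3 ± 1.9 CPM with the inhibitor alone (SD, n = 2 each), a log2 change of -0.87 (SE 0.12, interval -1.13 to -0.60, adjusted p = 0.000126). Parp9 averaged 49.2 ± 2.5 CPM with LPS and the inhibitor and 73.6 ± 1.3 CPM with the inhibitor alone (SD, n = 2 each), a log2 change of -0.57 (SE 0.07, interval -0.73 to -0.41, adjusted p = 7.18e-05). For neither gene did the libraries overlap. Here 50.8% of all tested genes were called lower and 13.5% higher (3527 and 2885 genes under median-of-ratios scaling), and relative to the median of all genes the changes were -0.60 for Dtx3l and -0.30 for Parp9. Parp14 averaged 123.7 ± 19.7 CPM with LPS and the inhibitor and 88.5 ± 19.5 CPM with the inhibitor alone (SD, n = 2 each). Its log2 change was 0.49 (SE 0.20, interval 0.04 to 0.94, adjusted p = 0.0561). With the replicate block Parp14 was called higher (adjusted p = 2.52e-06), where 18.4% of all genes were, and the change was 0.75 under median-of-ratios scaling (adjusted p = 0.0113). It was also called without replicate 2 of the inhibitor alone (0.71) and without replicate 1 of LPS and the inhibitor (0.65).

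The LPS response with the inhibitor minus that without it was -1.73 for Dtx3l (SE 0.17, interval -2.1 to -1.35, adjusted p = 0.00173) and -0.95 for Parp9 (SE 0.10, interval -1.18 to -0.72, adjusted p = 0.00255). For Parp14 it was -1.56 (SE 0.28, interval -2.19 to -0.92, adjusted p = 0.0516), and with the replicate block it was called (adjusted p = 1.81e-08), as it was without replicate 1 of the inhibitor alone (-1.78, adjusted p = 0.0366). Without the block 2 of the 3 genes were called lower, where 0.569% of all tested genes were, and with it 3 of 3, where 1.7% were. Within a replicate number the differences were -1.73 and -1.72 for Dtx3l, -0.98 and -0.92 for Parp9, and -1.48 and -1.64 for Parp14. The comparison shares LPS-treated and untreated WT libraries with the comparison between genotypes, so the values of the 2 interactions are given side by side and not related to each other.

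LPS-treated KO cells were also compared with WT cells given LPS and the inhibitor. Parp9 had 48.7 and 53.0 CPM in LPS-treated KO cells, against 47.4 and 51.0 CPM in WT cells with LPS plus inhibitor. The libraries overlapped, and the log2 difference was 0.05 (SE 0.07, interval -0.12 to 0.21, adjusted p = 0.765). Dtx3l had 35.4 and 43.8 CPM in LPS-treated KO cells, against 25.2 and 30.3 CPM in WT cells with LPS plus inhibitor. Both KO libraries were higher, with a log2 difference of 0.49 (SE 0.12, interval 0.23 to 0.76, adjusted p = 0.0233). In this comparison 6.5% of all tested genes were called higher and 6.82% lower, or 484 and 1572 genes under the deposited scaling. The call of Dtx3l was lost without replicate 2 of LPS-treated KO cells (log2 difference 0.35) and without replicate 1 of LPS and the inhibitor (0.37). Parp14 had 35.0 and 40.5 CPM in LPS-treated KO cells, against 109.8 and 137.6 CPM in WT cells with LPS plus inhibitor (log2 difference -1.68, SE 0.20, adjusted p = 0.000558).

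**Figure D2:**
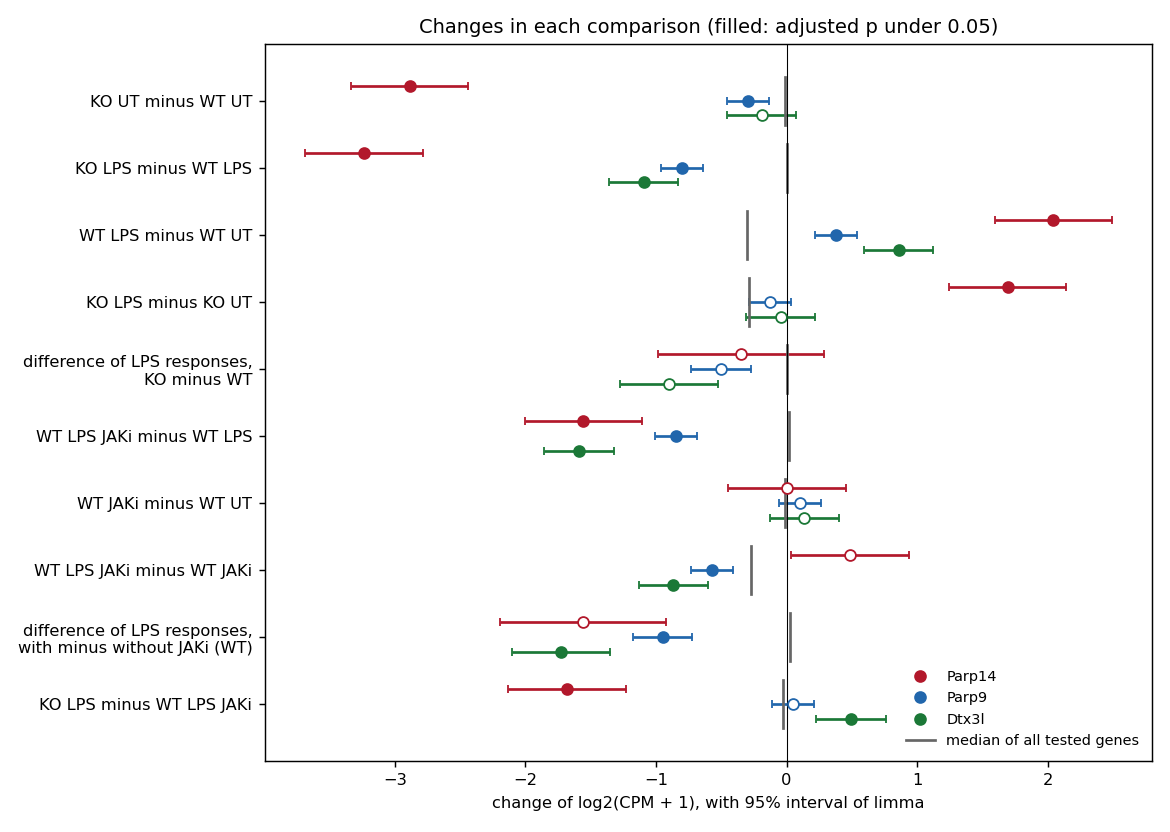
Change of log2(CPM + 1) of the 3 genes in each of the 10 comparisons, with the 95% interval of limma; filled points have an adjusted p under 0.05 without a block, and grey ticks mark the median of all tested genes. UT stands for untreated and JAKi for the Jak inhibitor. Dtx3l and Parp9 lie above 0 for LPS in WT cells, near 0 for LPS in KO cells and below 0 for LPS under the inhibitor.

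The ratio of Parp9 to Dtx3l within a library was taken per kilobase of exon so that the genes can be compared. The ratio was 2.21 and 1.98 with LPS and the inhibitor, against 1.71 and 1.67 with the inhibitor alone. It was 1.28 and 1.18 with LPS in WT cells, against 1.70 and 1.76 in untreated WT cells. In KO cells it was 1.62 and 1.42 with LPS, against 1.63 and 1.59 without treatment. The 2 WT libraries with LPS were thus lower than the other 10, the 2 with LPS and the inhibitor were higher than the other 10, and the KO groups overlapped. The ratio of Parp14 to Dtx3l was 2.68 and 2.79 with LPS and the inhibitor and 2.46 and 2.79 with LPS, against 0.920 and 1.20 with the inhibitor alone and 1.03 and 1.29 in untreated WT cells. So the libraries with LPS and the inhibitor overlapped those with LPS alone, and both LPS groups were above both groups without LPS. In KO cells it was 0.608 and 0.570 with LPS, against 0.153 and 0.179 without treatment. The ratio of Parp14 to Parp9 was 1.21 and 1.41 with LPS and the inhibitor, against 1.93 and 2.37 with LPS. The ratios are given as values, and no test of them was run.

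**Figure D3:**
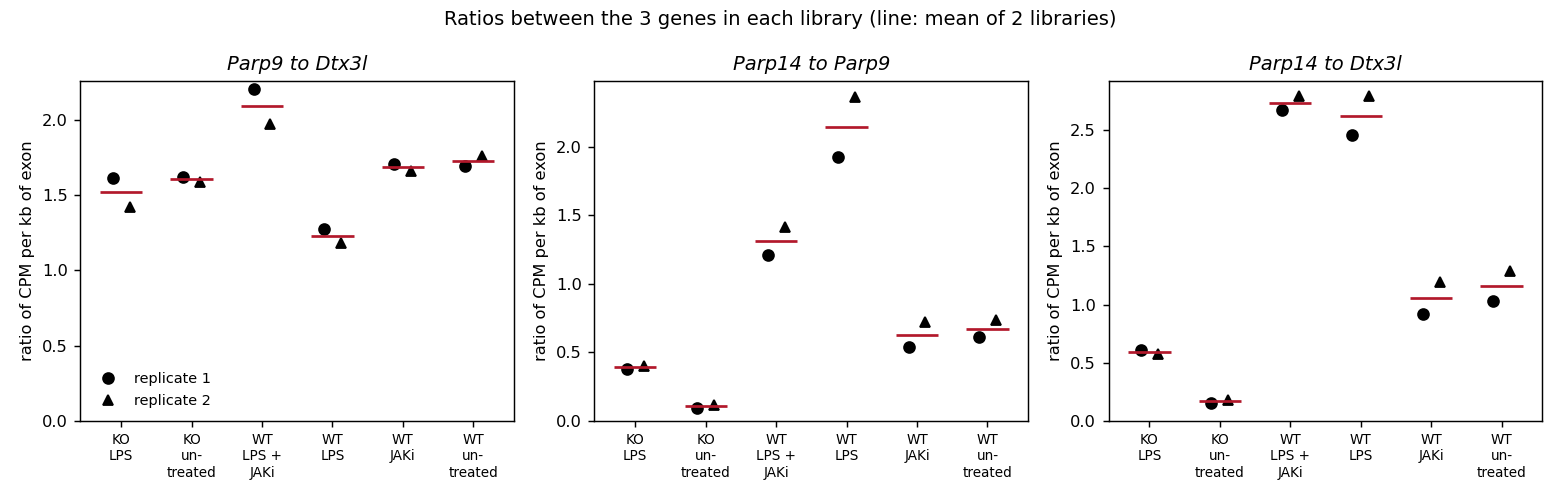
Ratios of CPM per kilobase of annotated exon between the genes in each library (points, circle for replicate 1 and triangle for replicate 2), with group means as red lines. The ratio of Parp9 to Dtx3l is lowest in WT cells with LPS (1.28 and 1.18) and highest with LPS and the Jak inhibitor (2.21 and 1.98), and the ratios with Parp14 are low in both KO groups.

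The order of the groups differed between the genes. For Parp14, per kilobase of exon, WT cells with LPS were highest at 39.4 ± 7.9 CPM, followed by WT cells with LPS and the inhibitor (13.3 ± 2.1), WT cells with the inhibitor (9.52 ± 2.1), untreated WT cells (9.46 ± 1.77), LPS-treated KO cells (4.06 ± 0.43) and untreated KO cells (1.18 ± 0.15; SD, n = 2 each). Of these neighbours only the inhibitor and untreated WT groups overlapped. For Parp9 the order was WT cells with LPS (18.3 ± 1.0 CPM per kilobase), with the inhibitor (15.1 ± 0.3), untreated WT cells (14.1 ± 0.8), untreated KO cells (11.4 ± 0.03), LPS-treated KO cells (10.4 ± 0.6) and WT cells with LPS and the inhibitor (10.1 ± 0.5; SD, n = 2 each). The last 2 overlapped, and no called change separated the inhibitor from the untreated WT group or, without the block, the KO groups from each other. For Dtx3l the order was WT cells with LPS (14.9 ± 1.7 CPM per kilobase), with the inhibitor (8.96 ± 0.33), untreated WT cells (8.13 ± 0.26), untreated KO cells (7.10 ± 0.13), LPS-treated KO cells (6.91 ± 1.03) and WT cells with LPS and the inhibitor (4.85 ± 0.63; SD, n = 2 each). The KO groups overlapped, and untreated KO and WT cells, like the inhibitor and untreated WT groups, were not separated by a called change.

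Which genes followed a pattern most like each of the 3 was described by the root mean square difference of log2(CPM + 1), with each gene centred on its own mean. Over all 12 libraries the 5 genes closest to Dtx3l were Trafd1 (0.12), Trim30a (0.14), Eif2ak2 (0.16), Ifi44l (0.16) and Trim21 (0.17). Eif2ak2 encodes the RNA-activated kinase PKR, and Trim21 an antibody-binding ubiquitin ligase. The 5 closest to Parp9 were Phf11d (0.10), Ifi44l (0.12), Lgals3bp (0.13), Herc6 (0.14) and Zcchc2 (0.15). Parp9 itself had place 11 of 10898 among the genes most like Dtx3l, at a difference of 0.23, and Dtx3l had place 57 among those most like Parp9. For comparison, the median difference over all tested genes was 0.56 for Dtx3l and 0.39 for Parp9. For Parp14 the 8 WT libraries were used, and the closest genes were the helicase gene Helz2 (0.16), Slfn8 (0.21), Slfn5 (0.22), Rtp4 (0.23) and Ifi202b (0.23). Dtx3l had place 431 and Parp9 place 985 of 10898 in that order, at differences of 0.65 and 0.74. The libraries of a group share their treatment, so these likenesses mostly describe how genes differ between group means.

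Herc6, as an example from the genes closest to Parp9, had 5.04 and 5.97 CPM in LPS-treated KO cells and 6.51 and 7.57 CPM in WT cells with LPS plus inhibitor, against 10.7 and 13.0 CPM in LPS-treated WT cells. Helz2 had 103.2 and 141.7 CPM in WT cells with LPS plus inhibitor, against 295.8 and 379.8 CPM in LPS-treated WT cells. In KO cells, which the comparison with Parp14 left out, Helz2 had 221.1 and 273.1 CPM with LPS, against 77.9 and 114.8 CPM without treatment. Trafd1 had 34.31 and 41.01 CPM in LPS-treated KO cells and 23.0 and 26.9 CPM in WT cells with LPS plus inhibitor, against 65.5 and 73.9 CPM in LPS-treated WT cells. As with Dtx3l, its libraries with the inhibitor were below the LPS-treated KO libraries, and both were below LPS alone. Herc6 and Trafd1 were picked for likeness to Parp9 and Dtx3l over these same libraries, so a shared order follows from the choice.

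No tested neighbour of the 3 genes was called lower in KO cells. Of 19 protein-coding genes within 500 kb of the stretch 8 were tested, and limma, edgeR, DESeq2 and the replicate block each called 0 of them lower in KO cells, with or without LPS, as did an unadjusted p under 0.05. Of all tested genes limma called 7.66% lower after LPS and 5.37% without treatment, so 0 of 8 is near these shares. Without treatment the block called 3 of the 8 higher, beside 10.9% of all genes. Their log2 changes in KO cells ran from -0.25 to 0.37 after LPS and from -0.02 to 0.45 without treatment. Pdia5, a protein disulfide isomerase gene 342 kb away, was called higher in KO cells after LPS (0.37, SE 0.08, adjusted p = 0.00935) and without treatment (0.37, SE 0.08, adjusted p = 0.0125). The nearest neighbours were Hspbap1, 4.4 kb from Parp14, and the nuclear import gene Kpna1, 6.1 kb from Parp9. Kpna1 had 143.8 and 148.7 CPM in LPS-treated KO cells, against 155.2 and 154.2 CPM in LPS-treated WT cells, and its log2 change of -0.08 (SE 0.06, adjusted p = 0.496) was not called. Hspbap1 was low, at 1.48 and 2.62 CPM in LPS-treated KO cells, against 1.34 and 2.07 CPM in LPS-treated WT cells. With LPS in WT cells limma called 2 of the 8 lower (Sec22a and Wdr5b) and 0 higher, beside 53.6% and 13.7% of all tested genes. edgeR and DESeq2 each called 1 of the 8 lower and 3 higher. Of all 10899 tested genes edgeR called 3422 lower and 3052 higher, and DESeq2 3128 and 3255. With LPS in KO cells limma called 5 of the 8 lower (edgeR 3, DESeq2 2), beside 52.7% of all tested genes in limma. edgeR called 3497 of all tested genes lower there and DESeq2 3185. With LPS under the inhibitor limma called 3 of the 8 lower (edgeR and DESeq2 0), beside 50.8% of all tested genes in limma. edgeR called 3332 of all tested genes lower there and DESeq2 3069. With the inhibitor added to LPS their changes ran from -0.05 to 0.04. None was called by limma, edgeR or DESeq2 or had an unadjusted p under 0.05. Of all tested genes limma called 1.04% lower and 0.0734% higher there, so 0 of 8 is near these shares as well.

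**Figure D4:**
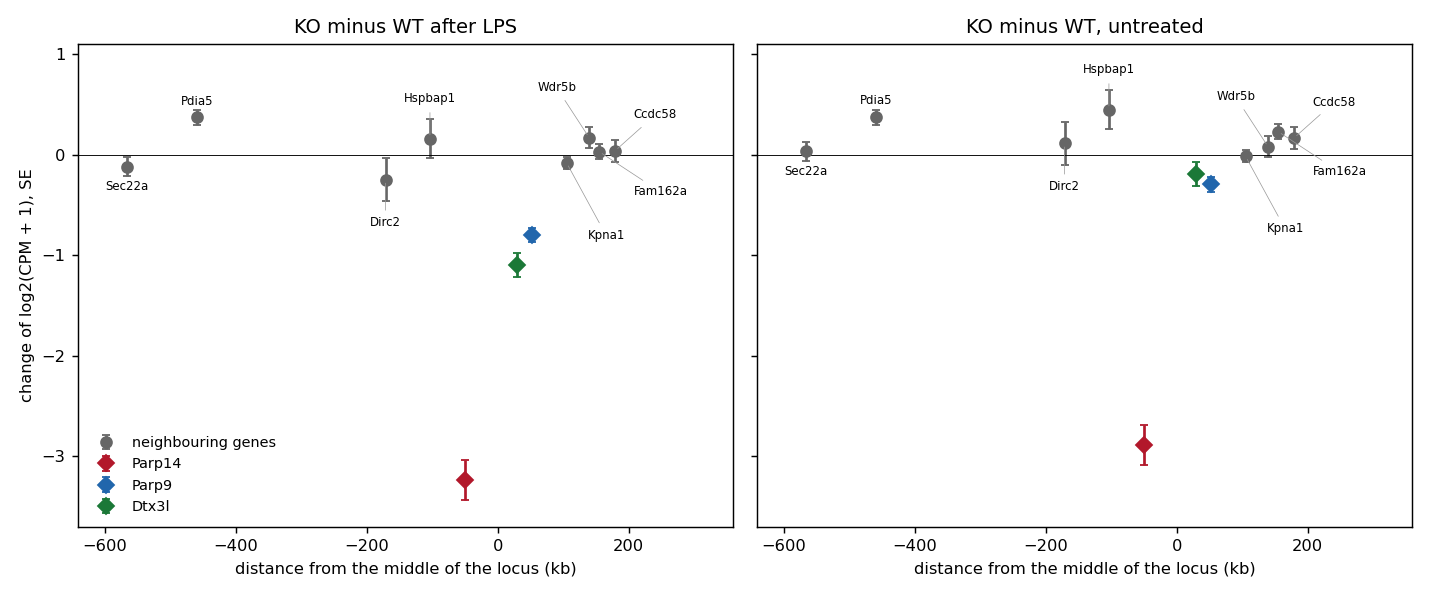
Change of log2(CPM + 1) in KO minus WT cells, after LPS (left) and untreated (right), for the 3 genes and their 8 tested neighbours, against distance from the middle of the locus in kb; bars are SE of limma. After LPS the neighbours lie between -0.25 and 0.37, and Parp9, Dtx3l and Parp14 at -0.80, -1.10 and -3.24.

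The 3 genes were placed beside 42 type I interferon-stimulated genes, all of them tested. The list was chosen with results of these data known, so its direction is no independent evidence. In KO minus WT cells after LPS 32 of the 42 were called lower and none higher, beside 7.66% and 6.19% of all tested genes. The list's median was -0.90, against 0.00 for all tested genes. Parp9 at -0.80 and Dtx3l at -1.10 lay within the range of the list, which ran from -2.45 for Rsad2 (viperin) to 0.04, and Parp14 lay below it. With LPS in KO cells 18 were called higher and 6 lower (30 and 1 under median-of-ratios scaling), with a median of 0.39. Of all tested genes 13.9% were called higher and 52.7% lower there. With LPS in WT cells 34 were called higher and none lower, with a median of 0.99, beside 13.7% and 53.6% of all tested genes. Of the 42, 31 had a higher WT change than Parp9, 23 a higher one than Dtx3l and 6 a higher one than Parp14. Without treatment 4 of the 42 were called lower in KO cells, beside 5.37% of all tested genes. The 4 were Slfn5 (-0.56), Ifit1 (-0.51), Ifih1 (-0.46) and Herc6 (-0.44). Lower calls numbered 1 under median-of-ratios scaling, 2 in edgeR and 8 in DESeq2. The block turned this into 26 lower and 2 higher, where 13.7% of all genes were lower and 10.9% higher. For the LPS response of KO minus WT cells 6 of the 42 were called lower (1 in edgeR, 7 in DESeq2 and 30 with the block) and none higher. Of all tested genes 0.284% were called lower, and 2.12% with the block. The list's median was -0.57, against 0.00 for all tested genes. Where 0 of the 42 were called higher here, and 0 lower with LPS in WT cells, edgeR, DESeq2 and an unadjusted p under 0.05 gave 0 as well.

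With LPS and the inhibitor against the inhibitor alone, 6 of the 42 were called higher and 22 lower (8 and 16 under median-of-ratios scaling). These shares are near those of all tested genes, of which 13.5% were called higher and 50.8% lower. The list had a median of -0.42 against -0.27 for all tested genes. Isg15 (4.6), Oasl1 (3.57), Ifih1 (3.52) and Ifit1 (2.85) had the largest rises, while Parp9 and Dtx3l were called lower with the 22. With the inhibitor added to LPS 33 of the 42 were called lower and none higher, with a median of -1.29. Of all tested genes 1.04% were called lower and 0.0734% higher. Of the 42, 26 had a higher change than Dtx3l, 26 a higher one than Parp14 and 13 a higher one than Parp9 there. Between LPS-treated KO cells and WT cells with LPS and the inhibitor 15 were called higher and 1 lower. Of all tested genes 6.5% were called higher and 6.82% lower. The list's median was 0.46, and Dtx3l at 0.49 was near it. With the replicate block these counts were 32 and 4, where 14.8% of all genes were higher and 18.3% lower.

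**Figure D5:**
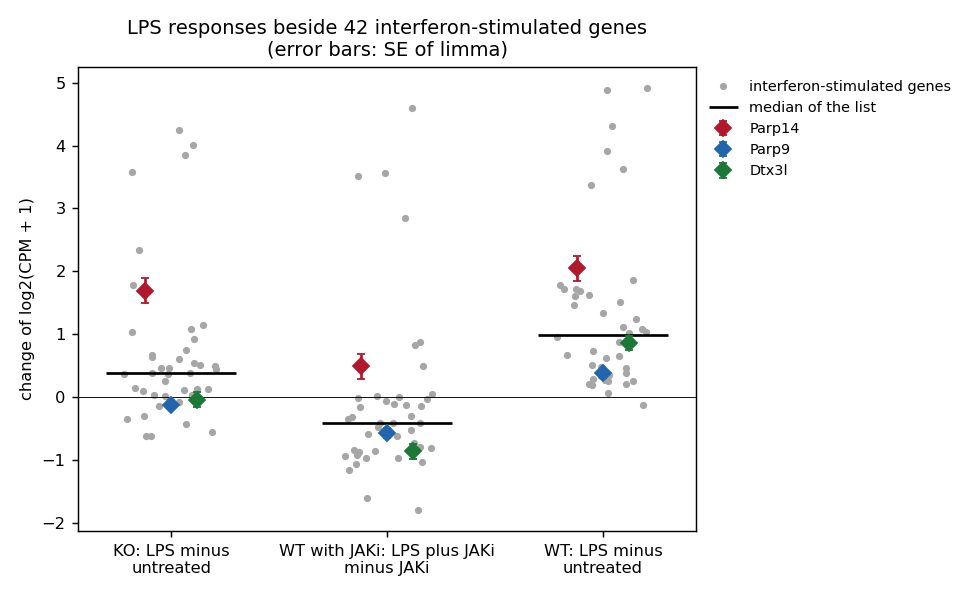
LPS responses as change of log2(CPM + 1) in KO cells, in WT cells with the Jak inhibitor (JAKi) and in WT cells, for 42 interferon-stimulated genes (grey points, spread sideways at random; black line, their median), with the 3 genes as diamonds with SE. Parp14 lies above the list's median in all 3 settings, and Parp9 below it in all 3.

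Genes of the path that leads from interferon beta to ISGF3 changed as follows. After LPS 7.66% of all tested genes were called lower in KO cells and 6.19% higher. Of 10 listed genes, all tested, 5 were called lower there and none higher. Among them were Ifnb1, which encodes interferon beta (-1.19, SE 0.14, adjusted p = 0.000418), the ISGF3 subunit gene Stat2 (-1.21) and Usp18 (-1.52), which encodes a brake on the receptor. Ifnb1 averaged 12.6 ± 2.6 CPM in LPS-treated KO cells, 26.3 ± 3.0 CPM in WT cells with LPS plus inhibitor, and 29.7 ± 2.8 CPM in LPS-treated WT cells (SD, n = 2 each). The inhibitor added to LPS lowered 5 of the 10, with Usp18 at -2.33, Stat2 at -1.63 and Irf9, the DNA-binding subunit of ISGF3, at -1.18, and Ifnb1 was not called (-0.17, adjusted p = 0.933). In that comparison 1.04% of all tested genes were called lower. Usp18, Stat2 and Irf9 are also on the interferon list. Without treatment none was called in KO cells by limma or edgeR, with 2 at an unadjusted p under 0.05 and 1 called by DESeq2. Of all tested genes limma called 5.37% lower and 4.31% higher there, so none of 10 is near these shares. The block called 4 lower and 1 higher, where 13.7% of all genes were lower and 10.9% higher.

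Members of the families of the 3 proteins were counted as well. Of 14 other PARP family genes, 3 were called lower in KO cells after LPS, Parp10 (-0.67), Parp12 (-0.65) and Tiparp (-0.59), and Parp6 was called higher (0.49). Of all tested genes 7.66% were called lower and 6.19% higher there. Without treatment Tiparp (-0.36) and Parp6 (0.43) were called in the same directions, beside 5.37% and 4.31% of all tested genes. The inhibitor added to LPS lowered Parp10 (-0.99), Parp12 (-0.69) and Zc3hav1 (-0.65) and raised none, and Parp10, Parp12 and Zc3hav1 also belong to the interferon list. Of all tested genes 1.04% were called lower with the inhibitor added. With LPS in WT cells 2 of the 14 were called higher and 7 lower (3 and 2 under median-of-ratios scaling). These are near the shares of all tested genes, 13.7% and 53.6%. Tiparp was the highest of the 14 (1.42, SE 0.08, adjusted p = 4.77e-07). Of the 3 tested Deltex genes Dtx4 was called lower in KO cells after LPS (-0.30, SE 0.08, adjusted p = 0.0338), and it was also called lower without treatment (-0.33, adjusted p = 0.0303). With the block 1 was called lower and 1 higher after LPS, where 16.7% of all genes were called lower and 14.9% higher. Dtx4 rose with LPS in KO cells (0.90), under the inhibitor (0.98) and in WT cells (0.87), and its difference from Dtx3l was not tested.

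Of 7 tested genes whose products remove ADP-ribose none was called in KO cells by limma, edgeR or DESeq2, with or without LPS. None reached an unadjusted p under 0.05, while the block called 1 higher after LPS, beside 14.9% of all genes. Of all tested genes limma called 7.66% lower and 6.19% higher after LPS, and 5.37% and 4.31% without treatment. None of 7 is near these shares. Their LPS changes in WT cells were called lower for 5 of 7, Oard1 (-0.92) and Macrod2 (-0.70) among them, beside 53.6% of all tested genes. Under median-of-ratios scaling 4 were called lower and 1 higher. Of 7 genes for reported partners of the 3 proteins, 2 were called lower in KO cells after LPS (3 lower and 2 higher with the block), and 2 with the inhibitor added to LPS. Parp10 was in both counts. Of all tested genes 7.66% were called lower in the former comparison and 1.04% in the latter. With the block 16.7% of all genes were lower and 14.9% higher in KO cells after LPS. A further list held 15 early LPS-response genes, known as targets that need no interferon. With LPS 14 were called higher in KO cells, 13 under the inhibitor and 14 in WT cells, with medians of 5.0, 5.08 and 5.15. In each of these settings 1 of the 15 was called lower. Of all tested genes 13.9%, 13.5% and 13.7% were called higher, and 52.7%, 50.8% and 53.6% lower. Of the same 15, 2 were called higher and 1 lower in KO cells after LPS (3 and 3 with the block). Of all tested genes 6.19% were higher and 7.66% lower (14.9% and 16.7% with the block). Ier3 was 1.19 higher there (SE 0.09, adjusted p = 2.80e-05). With the inhibitor added to LPS none of the 15 was called by limma, edgeR or DESeq2, with 1 lower at an unadjusted p under 0.05 and 1 with the block, where 2.41% of all genes were.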

How the data were processed

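The authors deposited a table of CPM, 1 value for each gene symbol in each library. Per the submitters' processing notes the tools were TopHat2 2.1.0, HTSeq and edgeR, and the builds are named as mm10 and GRCm38. The sources used here do not give the other versions, the annotation or the strand setting. Per the labels' protocols the libraries were made from total RNA with a TruSeq RNA kit. Times the library total, 100% of the values deposited were whole to within 0.02 reads, so read counts could be recovered. Another 4 per-sample columns matched no label and were not used.

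The deposited CPM were scaled over all counted alignments, 57.1 to 74.2 M per library, including 5 summary lines. Genes held 58.9 to 64.1% of these, alignments with no unique position 28.6 to 34.9%, no feature 5.0 to 6.37% and ambiguous alignments 0.994 to 1.13%. Values were rescaled to gene reads. The test was limma 3.58.1 with a trend on log2(CPM + 1) in R 4.3.3, with 6 group means over 12 libraries, residual degrees of freedom 6 and prior degrees of freedom 3.54. The fold changes on this scale understate those of low genes. The script was tested on simulated data. Alternatives were the deposited scaling, median-of-ratios scaling, 0.25 as pseudocount, a filter of 5 CPM or none, a replicate block, only the groups compared, each library left out in turn, edgeR 4.0.16 and DESeq2 1.42.0.

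The labels number replicates 1 and 2 in each group. Differences of replicate 1 minus 2 correlated across genes in all 15 pairs of groups (0.468 to 0.737), so the numbers were taken to pair the libraries in the block. The main test leaves this pairing out, so its SE and intervals include any shift that the replicates share. For Parp14 in KO minus WT cells after LPS the SE was 0.20 without the block and 0.06 with it. The labels name no shared day. For Parp14, Parp9 and Dtx3l the blocked value stands beside a result where it changes the call. For counts of list genes and neighbours it is given in some cases only. In KO minus WT cells after LPS, for example, the block called 40 of the 42 interferon-stimulated genes lower, against 32 without it.

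The 3 genes, the lists and the tests were chosen with earlier results of these data known. Named genes were the 3 members, the 5 tested genes most like each, neighbours within 500 kb, and up to 4 called genes with the largest changes of each list, of which not all are named. Parp10, Parp12, Zc3hav1, Ifnb1 under the inhibitor, Kpna1 and Hspbap1 were named for membership or position. 1 gene of the lists is included in the counts and is not reported here by name.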

Additional observations from a re-analysis of the deposited data

Results flagged for a closer look

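Both sets of tested differences between LPS responses stand out, and they share the LPS-treated and untreated WT libraries. The response of KO cells minus that of WT cells was -0.35 for Parp14, -0.50 for Parp9 and -0.90 for Dtx3l. limma called it for all 3 with the replicate block and for none of them in the 12 libraries without it, while without a block DESeq2 called Parp9 and Dtx3l, and limma called Dtx3l with replicate 2 of LPS-treated KO cells left out. The response with the Jak inhibitor minus that without it was -1.56 for Parp14, -0.95 for Parp9 and -1.73 for Dtx3l. limma called Parp9 and Dtx3l without the block and all 3 with it, and Parp14 was also called without a block by DESeq2, under the deposited scaling and with replicate 1 of the inhibitor alone left out. In each of the 6 cases both replicate numbers gave the same sign. This is no separate evidence, since all 6 were called with the block and the cases share WT libraries.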

How the results depend on the processing

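Of 30 results for the 3 genes 18 kept their direction and side of the threshold under all alternatives, and of 414 recomputed values 372 did so. The cause of the other changes was not tested. Parp9 in untreated KO minus WT cells was not called under median-of-ratios scaling (-0.28) or with only the groups compared (-0.30), and ran from -0.35 to -0.24 with a library left out. For LPS in KO cells Parp9 was 0.15 (median of ratios), 0.17 (edgeR), 0.19 (DESeq2) and -0.13 with the replicate block, and Dtx3l 0.23, 0.26 and 0.28 under the first 3, and -0.19 to 0.10 with a library left out, positive without replicate 1 of LPS-treated KO cells. The interaction of genotype with LPS was called with the replicate block for Parp14 (-0.35; -0.56 to -0.14 with a library left out and no block), Parp9 (-0.50) and Dtx3l (-0.90), with DESeq2 for Parp9 (-0.53) and Dtx3l (-0.93), and for Dtx3l without 1 library (range -1.05 to -0.75). For the inhibitor Parp14 ran from -1.76 to -1.35 beside LPS with a library left out. Alone, it was -0.0032 for Parp14 under the deposited scaling, with -0.22 to 0.23 when a library was left out. For LPS under the inhibitor Parp14 was called at 0.48 (deposited scaling), 0.75 (median of ratios), 0.49 (replicate block), 0.77 (edgeR) and 0.79 (DESeq2), with 0.26 to 0.71 when a library was left out. Its interaction with the inhibitor was called at -1.51 (deposited scaling), -1.56 (replicate block) and -1.61 (DESeq2), with -1.78 to -1.33. For LPS-treated KO minus WT cells with LPS and the inhibitor, Parp9 was -0.05 under the deposited scaling and -0.0136 to 0.11 with a library left out, and Dtx3l was not called with only the groups compared (0.49) and ran from 0.35 to 0.64. With a library left out a group rests on a lone sample, assumed to vary like the others. Of 280 recomputed counts of list genes 68 moved by over 1.5 times. Over all genes the replicate block called 1189 higher and 1496 lower for untreated KO minus WT cells, against 470 and 585 without it. After LPS it called 1623 and 1815, against 675 and 835, and for the interaction with genotype 182 and 231, against 14 and 31 (edgeR 4 and 6, DESeq2 26 and 52). edgeR on the recovered reads called 479 and 530 genes in untreated KO minus WT cells and 670 and 841 after LPS. The replicate block changed no other call of the 3 genes than those named. Having 2 libraries a group limits the precision, and each of the 3 genes had at least 399 reads in every library.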
